A study of Mus musculus with 29 samples.

Results

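Long H3K79me2 domains were described in RAW264.7, an established mouse line of macrophage character that was transformed with Abelson murine leukemia virus. A long domain is an H3K79me2 peak of untreated cells on chromosomes 1 to 19 or X that spans at least 30 kb from start to end, and 584 of 13457 peaks (4.34%) met this width. They held 27.6 of 101.3 Mb of H3K79me2 peaks, or 27.3% of the length. The domains were chosen by their measured width in the untreated H3K79me2 list, so width is given as a description. The other marks, and H3K79me2 after treatment, were not used to choose them.

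The series mapped 7 histone marks (H3K79me2, H3K4me3, H3K4me1, H3K27ac, H3K36me3, H3K36me2 and H3K27me3) and the transcription factor PU.1 by chromatin immunoprecipitation and sequencing. Each histone mark was taken from untreated cells and from cells given lipopolysaccharide (LPS) at 100 ng/ml for 1 h or 4 h. LPS, from the outer membrane of Gram-negative bacteria, sets off the inflammatory response of macrophages. H3K4me1 and H3K36me2 were also mapped after 1 h of flavopiridol, alone and followed by LPS for 4 h, and PU.1 was mapped in untreated cells only. Flavopiridol inhibits CDK9, the kinase that releases paused RNA polymerase II into elongation, and its dose is not given in the labels. There was 1 library per mark and condition, all from 1 cell line, so no spread between cultures can be measured and no p-value is given. Each difference below is between single libraries, and what a second culture would give is unknown. The number of reads behind each peak list is unknown, and depth affects how many peaks a caller finds and how wide they are. Peaks were used as intervals, and the covered share is the percentage of a domain's bases that lie in peaks of a mark. Intervals on shares are 95% Wilson intervals, which cover counting error only and treat domains as independent.

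H3K79me2 is written by DOT1L, which travels with the elongation machinery, and the mark lies over the early part of transcribed genes. H3K4me3 marks active start sites, H3K36me3 is laid over gene bodies by SETD2 behind elongating polymerase, and H3K36me2 is laid by other enzymes in and between genes. H3K4me1 and H3K27ac mark enhancers, H3K27ac also marks active promoters, and PU.1 is the factor that opens many enhancers of the macrophage lineage. H3K27me3 is the Polycomb mark of silent chromatin.

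The long domains had a median width of 40878.5 bp, and the middle 50% lay between 34082 and 51944 bp. Of the 584, 311 spanned at least 40 kb, 168 at least 50 kb, 18 at least 100 kb and 4 at least 150 kb. The narrowest members were 30046, 30046 and 30090 bp wide, and the widest peaks left out were 29992, 29975 and 29969 bp, so the threshold falls in a continuous range. Chromosome 2 held 52 domains and chromosome X held 14, or 28.6 and 8.40 per 100 Mb. The widest domain, chr19:16208191-16423808 (mm9), spanned 215618 bp. It held 3 H3K4me3 peaks and 34 PU.1 summits, and H3K36me3 covered 75.8% of it, H3K36me2 75.1% and H3K27ac 18.7%. Next in width were chr16:77302298-77469895 with 167598 bp, chr10:66541891-66699968 with 158078 bp and chr8:119781005-119934808 with 153804 bp. No mm9 gene annotation was used here, so domains are named by position and not assigned to genes.

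Nearly every long domain carried an H3K4me3 start, most often at 1 end. At least 1 H3K4me3 peak overlapped 559 of the 584 domains (95.7%, interval 93.8 to 97.1), against 87.4% of 2360 H3K79me2 peaks of 10 to 30 kb and 50.7% of 10513 peaks under 10 kb. A wider region has more room for a peak, and that part of the difference was not separated. In 488 domains (83.6%, interval 80.3 to 86.3) an H3K4me3 peak lay within 5 kb of 1 end and of that end alone. In 36 both ends had such a peak, in 35 the H3K4me3 lay only further in, and in 25 there was none. Of the 2360 peaks of 10 to 30 kb, 1820 (77.1%) had H3K4me3 at 1 end alone and 7.80% at both ends. The arrangement is thus not particular to the long domains. Of all domains, 281 had 1 H3K4me3 peak, 165 had 2, 62 had 3, 24 had 4, 17 had 5, 6 had 6, 2 had 7 and 2 had 8.

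The domains with most H3K4me3 peaks were among the widest, with 1 exception. In chr10:66541891-66699968 there were 8 peaks, and 8 more in chr2:90319529-90420483, a domain of 100955 bp. There were 7 in chr3:60298848-60428429 (129582 bp), and 7 in chr5:115956730-115994250, which spanned only 37521 bp and had 80.6% of its bases in H3K27ac. Several H3K4me3 peaks in 1 domain may belong to more than 1 start site, and the peak lists alone do not separate merged genes from long ones.

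The 25 domains without H3K4me3 differed from the rest in the other marks too. Pooled over their length, H3K27ac covered 9.30% against 24.8% in the 559 domains with H3K4me3. H3K36me3 covered 68.3% against 51.5%, H3K4me1 42.7% against 64.0%, and PU.1 summits stood at 9.0 against 15.5 per 100 kb. The widest of them was chr15:61889327-61982447 with 93121 bp, 78.8% in H3K36me3 and 9.02% in H3K27ac. In 7 of the 25 an H3K4me3 peak lay outside but within 5 kb of an end.

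The 488 domains with H3K4me3 at 1 end could be given a direction, and averaged over them the marks peaked at different distances. H3K4me3 and H3K27ac filled the first 2 kb, covering 81.1% and 83.7% of the bases, while H3K4me1 covered 48.0%, H3K36me2 23.5% and H3K36me3 7.60%. From 2 to 5 kb H3K4me1 reached its highest level, 88.0%, and H3K36me2 covered 67.6%. H3K4me3 had dropped to 25.2% there and to 3.43% at 10 to 20 kb. The choice of end by H3K4me3 fixes the H3K4me3 part of this profile, including its absence within 5 kb of the far end. Marks that go with H3K4me3 or avoid it are partly set by that choice too. Across the 584 domains, H3K4me3 share had a Spearman rho of 0.68 with H3K27ac and -0.48 with H3K36me2. The part that the choice sets in the other marks, at either end, was not separated.

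Deeper in, H3K4me1 declined and H3K36me3 increased. H3K4me1 covered 80.5% at 5 to 10 kb, 69.8% at 10 to 20 kb and 59.8% at 20 to 30 kb. H3K36me3 covered 36.6% at 2 to 5 kb, 48.4% at 5 to 10 kb, 49.5% at 10 to 20 kb and 53.9% at 20 to 30 kb. H3K36me2 was nearly level between 5 and 30 kb, at 72.2, 73.3 and 69.4%. H3K27ac fell from 44.3% at 2 to 5 kb to 17.5% at 20 to 30 kb. PU.1 summits thinned from 40.3 per 100 kb in the first 2 kb to 22.8 at 2 to 5 kb and 12.7 at 20 to 30 kb. All 488 domains reach at least 30 kb, so these bins lie inside every one.

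In the 1820 peaks of 10 to 30 kb with H3K4me3 at 1 end, the averaged profile changed over a shorter distance. At 5 to 10 kb H3K4me1 covered 59.2% there against 80.5% in the long domains, H3K36me3 61.3% against 48.4%, and H3K36me2 58.8% against 72.2%. At that distance the shorter peaks are nearer their far end, and distance from the start and distance to the far end cannot be told apart between these classes.

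**Figure D1:**
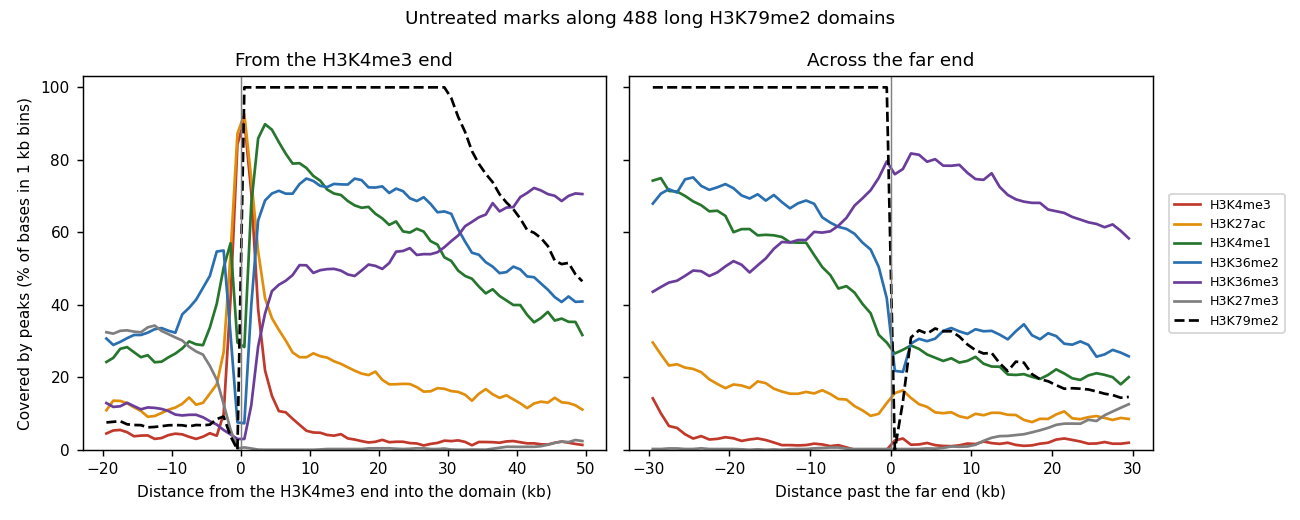
Share of bases covered by untreated peaks of each mark in 1 kb bins for the 488 long domains with H3K4me3 at 1 end, by distance (kb) from that end (left) and past the other end (right); each line is 1 library. H3K4me3 and H3K27ac peak at the start, H3K4me1 is highest at 2 to 5 kb (88.0%), and H3K36me3 is highest just past the far end (80.9% at 2 to 5 kb). H3K36me2 is lowest at the start (7.30% in the first 1 kb inside) and is 21.6% in the first 2 kb past the far end. Beyond 30 kb on the left, bins run past the ends of the shorter domains, as the dashed H3K79me2 line shows.

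The far end of the domains lay inside H3K36me3. H3K36me3 covered 61.2% of the bases 10 to 5 kb before the far end, 77.3% in the last 2 kb, 76.7% in the first 2 kb outside and 80.9% from 2 to 5 kb outside, and it was still at 62.6% from 20 to 30 kb outside. H3K36me2 was lower past the end than inside, with 63.4% at 10 to 5 kb before the end, 46.1% in the last 2 kb and 21.6% in the first 2 kb outside, and it stood at 29.97% from 2 to 5 kb and 32.3% from 5 to 10 kb outside. H3K4me1 was already low, at 30.7% in the last 2 kb and 27.1% in the first 2 kb outside. On the other side, H3K27me3 covered 32.8% of the bases 10 to 20 kb upstream of the H3K4me3 end and 0.21% of those 10 to 20 kb inside.

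Of their pooled length, the long domains had larger shares in H3K4me1 and H3K36me2 than shorter H3K79me2 peaks, and smaller shares in H3K4me3 and H3K27ac. H3K4me1 covered 63.2% of the pooled length of long domains, 55.8% of peaks of 10 to 30 kb and 55.0% of those under 10 kb. H3K36me2 covered 67.8, 55.6 and 48.3% in the same order. H3K27ac covered 24.2, 26.5 and 31.5%, and H3K4me3 7.57, 12.6 and 21.3%. The medians over single peaks had no steady trend, at 16.6, 19.1 and 17.7% for H3K27ac and 6.66, 10.4 and 2.61% for H3K4me3. A start of a given size takes a smaller share of a wider region, and that part of the difference was not separated. H3K36me3 showed no trend with width, at 52.1, 55.2 and 49.7%. In the genome the same peaks covered 7.28% for H3K4me1, 10.7% for H3K36me2, 9.40% for H3K36me3 and 3.17% for H3K27ac, and H3K27me3 covered 0.17% of the long domains.

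**Figure D2:**
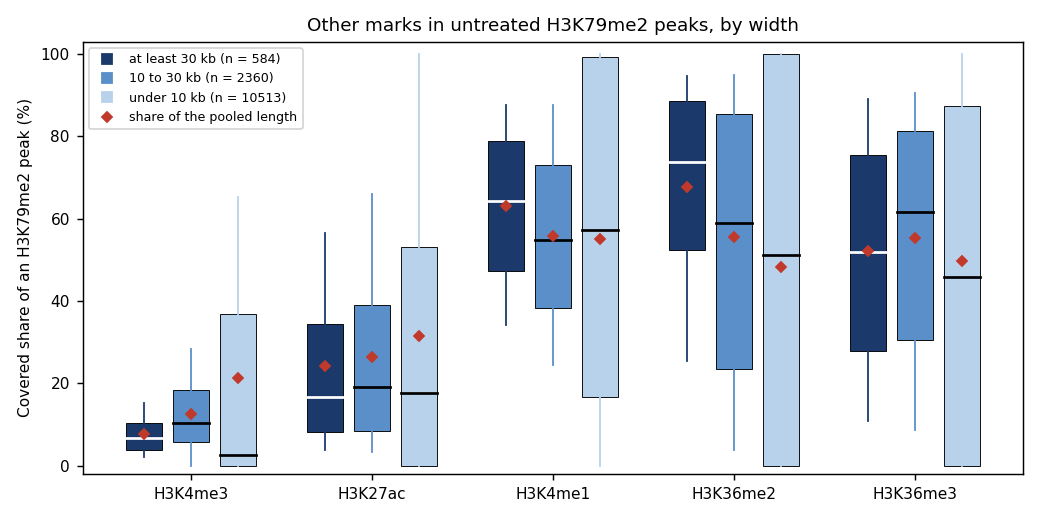
Share of each untreated H3K79me2 peak covered by another mark (%), for 3 width classes; boxes span the 25th to 75th percentile with the median as a line, whiskers the 10th to 90th, and diamonds give the share of the pooled length. The pooled H3K36me2 share increases with width from 48.3 to 67.8% and the pooled H3K4me3 share decreases from 21.3 to 7.57%.

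Single domains varied widely around these values. H3K4me1 ranged from 11.0 to 98.6% of a domain with a median of 64.3%, and it covered at least 50% of 416 domains. H3K27ac ranged from 0 to 96.9% with a median of 16.6%, below the pooled 24.2%. It covered at least 50% of 81 domains and was missing from 8. The most covered was chr7:87170494-87232397, 61904 bp wide with 6 H3K4me3 peaks and 96.9% in H3K27ac. Across the 584 domains, H3K27ac share and PU.1 density had a Spearman rho of 0.73, H3K4me1 and H3K27ac 0.70, and H3K4me1 and PU.1 density 0.67. Width had a rho of at most 0.11 in size with H3K4me1, H3K27ac and PU.1 density. Domains share the libraries and the caller, so these values are descriptions.

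H3K36me2 and H3K36me3 overlapped over part of the long domains, while domains with more of one mark tended to have less of the other. Of the bases, 37.8% carried H3K36me2 alone, 22.1% H3K36me3 alone, 30.02% both and 10.1% neither. By domain, 268 were covered by at least 50% with H3K36me2 but not H3K36me3, 127 the other way round, 180 by both and 9 by neither. The shares of the 2 marks had a Spearman rho of -0.74 across the 584 domains and -0.67 across the 2360 peaks of 10 to 30 kb. A limit on H3K36me2 is that few of its untreated peaks have strong deposited scores: 9.02% reach a −log10 q of 5, and those cover 4.80% of the long domains.

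The extremes show both kinds. The 5 widest domains without H3K36me3 included chr9:100544786-100606592 (61807 bp), where H3K36me2 covered 98.3%, and chr1:13275986-13317598 (41613 bp) with 95.8%. In chr2:79095930-79141570 (45641 bp) H3K36me2 was at 0% and H3K36me3 covered 98.1%. H3K27ac was 6.14% and 12.5% in the first pair and 58.0% in the last. Over all 584 domains, H3K27ac had a rho of -0.41 with H3K36me2 and 0.16 with H3K36me3.

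**Figure D3:**
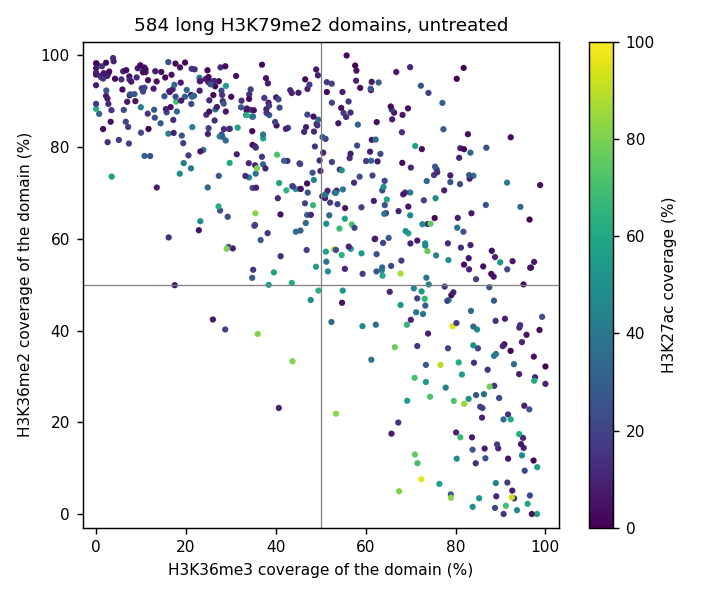
H3K36me3 (x) and H3K36me2 (y) coverage of each of the 584 long domains in untreated cells (% of bases), coloured by H3K27ac coverage; lines mark 50%. The upper left field holds the 268 domains covered by at least 50% with H3K36me2 but not H3K36me3, and the lower right the 127 the other way round. The upper right holds the 180 covered by at least 50% with both, and 9 lie at the lower left.

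Every long domain held a PU.1 summit. Of peaks of 10 to 30 kb, 2065 held a summit and 295 did not. Of those under 10 kb, 3212 did and 7301 did not. A wider region has more room for a summit, and that part of the difference was not separated. There were 4216 PU.1 summits in the 584 domains, 1 to 34 per domain with a median of 6, or 15.3 per 100 kb. Peaks of 10 to 30 kb had 14.6 and those under 10 kb 13.6 per 100 kb, against 3.77 over the genome. Inside the domains, 87.0% of summits (interval 85.9 to 87.9) lay in H3K4me1 and 65.8% in H3K27ac, against 65.8% and 42.4% of summits in the genome. In peaks of 10 to 30 kb the shares were 77.7% and 70.4%, and in those under 10 kb 72.2% and 74.2%, so for H3K27ac the long domains had the lowest share of the 3 width classes. H3K4me1 covers 63.2% of the long domains against 7.28% of the genome, and H3K27ac 24.2% against 3.17%. More overlap in the domains is given by that background, so no closer tie of PU.1 to these marks is read from the gap to the genome. PU.1 density in the long domains was 21.0 per 100 kb inside H3K4me1 and 5.41 in the rest of the same domains. Most summits, 34, were in the widest domain. The domain chr12:81891468-81971605, 80138 bp wide, had 29, with H3K4me1 over 95.4% and H3K27ac over 52.2% of it. With PU.1 peaks of at least 10-fold enrichment alone, the density in the long domains was 4.62 per 100 kb.

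Acetylated sites in the domains lay both with and without H3K4me3. Of 1936 H3K27ac peaks that overlapped long domains, 998 (51.5%, interval 49.3 to 53.8) overlapped no H3K4me3 peak. Their median width was 1389 bp, against 4494 bp for those with H3K4me3. A PU.1 summit lay in 71.1% of the 998 (interval 68.3 to 73.9). The same shares were not computed over all H3K27ac peaks or in shorter H3K79me2 peaks, so nothing particular to the long domains is read from them. A peak that overlaps no H3K4me3 may still lie near a start.

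After LPS the long domains stayed in place. The H3K79me2 list of LPS 1 h covered 99.1% of their length and that of 4 h 99.2%, and the least covered single domain kept 90.9% at 1 h and 89.2% at 4 h. Exactly 1 LPS peak overlapped each of 520 domains at 1 h and 525 at 4 h, and 240 and 311 domains were covered over their whole width. At the 2 times, 559 and 567 domains overlapped a peak still at least 30 kb wide. The covered share fell by at least 10 percentage points in 0 of 584 domains at 1 h and 2 at 4 h. The share of all 13457 untreated H3K79me2 peaks with such a fall was 32.4% at 1 h and 29.4% at 4 h. Width chose the members, and the loss of a given number of bases moves the share of a wide region less, so nothing is read from that gap. The 2 domains were chr4:109349634-109400345 (93.6% at 1 h, 89.2% at 4 h) and chr13:97288426-97341242 (95.1% and 89.8%).

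The ends of the domains moved both ways after LPS. The widest overlapping peak was wider than the domain in 384 cases and narrower in 200 at 1 h, and wider in 421 and narrower in 163 at 4 h, with a median width ratio of 1.01 at both times. In the last 2 kb inside the far end of the 488 oriented domains, H3K79me2 covered 88.2% at 1 h and 89.97% at 4 h, against 100% by definition in untreated cells. In the 5 kb past that end, H3K79me2 peaks covered 21.9% of the bases in untreated cells, 40.5% at LPS 1 h and 42.2% at 4 h. Past the H3K4me3 end the values were 5.66, 9.35 and 12.7%. The untreated peak chose where an end lies, so untreated cover is fixed high just inside it and low just outside, and no extension is read from these values. The whole H3K79me2 list grew in length by a factor of 1.06 at 1 h and 1.09 at 4 h. The lists held 681 peaks of at least 30 kb at 1 h and 708 at 4 h. Of these, 127 and 150 did not overlap a long domain, and untreated H3K79me2 already covered 96.9% of the length of all 681 and 96.2% of that of all 708. The new wide peak with least untreated cover at 4 h was chr2:128195717-128254616, 58900 bp, which was covered to 47.9% before LPS. H3K27ac there covered 43.7% in untreated cells and 74.7% at 4 h.

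H3K27ac in the domains was lower at 1 h and higher at 4 h of LPS. Its pooled share was 24.2% untreated, 21.7% at 1 h and 29.0% at 4 h. The whole H3K27ac list had 0.874 times its untreated length at 1 h and 1.09 times at 4 h, and in the domains the ratios were 0.899 and 1.20. A change of at least 10 percentage points was used as the call. At 1 h 28 domains rose and 73 fell (4.79 and 12.5%, background over all H3K79me2 peaks 8.66 and 15.0%). At 4 h 127 rose and 27 fell (21.7 and 4.62%, background 16.3 and 10.2%). Among peaks of 10 to 30 kb, 20.6% rose and 8.09% fell at 4 h.

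The change was far from uniform between domains. In chr10:7630590-7675410 (44821 bp, 1 H3K4me3 peak, 9 PU.1 summits) H3K27ac covered 8.17% untreated, 21.9% at 1 h and 80.3% at 4 h. H3K4me1 there was 69.5, 69.3 and 72.9%. In chr14:69870868-69903001 (32134 bp) H3K27ac covered 39.0, 70.6 and 88.9%, so most of the rise was present at 1 h. In chr11:67394076-67473028 (78953 bp) it was 43.4, 40.8 and 84.4%, a rise at 4 h alone. The largest falls at 1 h came partly back at 4 h. H3K27ac covered 72.2, 27.2 and 42.9% of chr4:149941025-149987009 (45985 bp), 76.6, 33.3 and 58.5% of chr17:75835870-75893934 (58065 bp), and 57.7, 20.9 and 37.0% of chr16:16528106-16571274 (43169 bp).

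H3K27ac peaks that appeared in the domains mostly stood on H3K4me1 that was already there. At 4 h, 514 H3K27ac peaks overlapping 315 domains had no untreated counterpart, with a median width of 924.5 bp. Of them 91.4% (interval 88.7 to 93.6) overlapped untreated H3K4me1, 77.0% untreated H3K36me2 and 34.8% an untreated PU.1 summit. Of 6002 such peaks outside H3K79me2, the shares were 74.7, 33.8 and 49.2%, and of 886 in shorter H3K79me2 peaks 87.1, 61.9 and 34.0%. H3K4me1 and H3K36me2 cover more of the domains than of the genome, so more overlap there is given by the background. At 1 h 191 H3K27ac peaks appeared and 300 disappeared, and at 4 h 145 had disappeared.

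**Figure D4:**
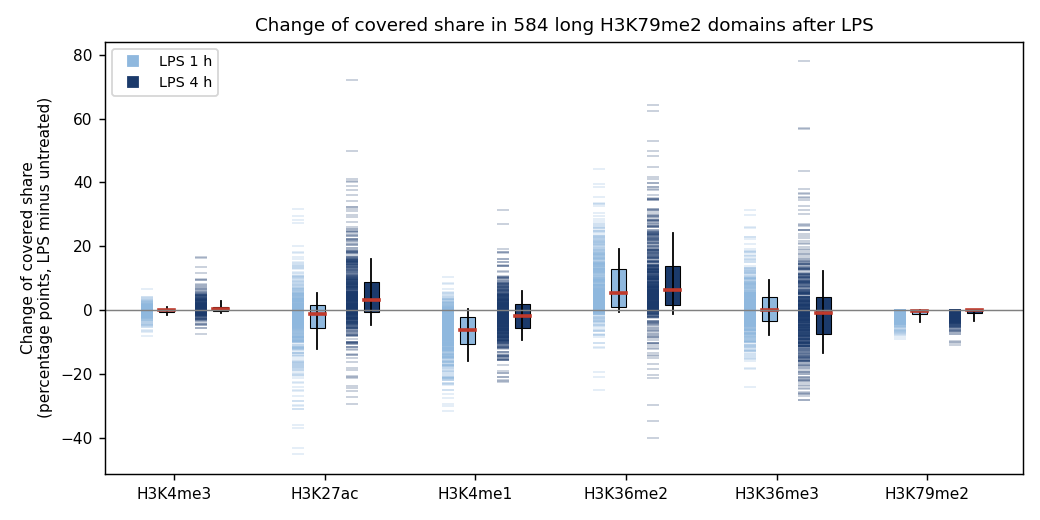
Change of covered share (percentage points, LPS minus untreated) in each of the 584 long domains after LPS for 1 h (light) and 4 h (dark); ticks are domains, boxes the 25th to 75th percentile, whiskers the 10th to 90th and red lines the median. H3K36me2 has median changes of 5.36 and 6.43, H3K4me1 of -6.31 and -1.72, and H3K27ac of -1.09 and 3.19; H3K79me2 starts at 100% and can only fall.

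H3K4me1 in the domains dropped at 1 h and had nearly returned at 4 h. The pooled share was 63.2% untreated, 56.2% at 1 h and 61.5% at 4 h, while the whole list had 0.918 and 1.04 times its untreated length. At 1 h it rose in 1 domain and fell in 161 (0.171 and 27.6%, background 4.20 and 24.4%), a share of falls close to the background. At 4 h it rose in 22 and fell in 47 (background 9.10 and 16.8%). The largest rise at 4 h was in chr5:93522448-93556527 (34080 bp), with 57.3% untreated, 45.5% at 1 h and 88.7% at 4 h. In chr6:47404719-47436900 (32182 bp), the largest fall at 1 h, it was 73.1, 41.5 and 62.9%. That domain was picked by its 1 h value, so the higher value at 4 h may come from the choice.

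H3K36me2 covered more of the domains after LPS. It covered 67.8% untreated, 75.1% at 1 h and 76.8% at 4 h, or 1.11 and 1.13 times the untreated share. The whole H3K36me2 list grew more, by 1.14 and 1.24 times. At 1 h 185 domains rose and 7 fell (31.7 and 1.20%, background 26.7 and 5.08%). At 4 h 212 rose and 18 fell (36.3 and 3.08%, background 31.3 and 4.50%). Of peaks of 10 to 30 kb, 32.4 and 37.6% rose, so the long domains stood close to the shorter peaks. The bases with H3K36me3 alone went from 22.1% untreated to 17.5% at 1 h and 16.7% at 4 h, and those with both H3K36 marks from 30.02 to 35.1 and 34.5%.

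H3K36me3 as a whole moved little, while single domains moved both ways. It covered 52.1% of the domains untreated, 52.7% at 1 h and 51.2% at 4 h. At 1 h 50 rose and 31 fell (background 9.11 and 11.5%), and at 4 h 79 rose and 102 fell (13.5 and 17.5%, background 10.2 and 16.2%). The domain chr11:20991824-21036218 (44395 bp) went from 7.40% untreated to 26.7% at 1 h and 85.3% at 4 h. H3K4me1 there was 45.5, 37.0 and 72.5%, H3K36me2 95.4, 95.7 and 87.1%, and H3K27ac 4.17, 8.05 and 20.0%. In chr2:90319529-90420483, with 8 H3K4me3 peaks, H3K36me3 covered 16.1, 32.0 and 73.2% and H3K27ac 45.2, 73.4 and 79.3%. The domain chr4:149941025-149987009, where H3K27ac fell, had H3K36me3 at 79.6, 74.6 and 62.2% and H3K36me2 at 24.7, 44.2 and 87.1%.

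H3K4me3 and H3K27me3, which cover little of the domains and so can hardly fall by 10 percentage points, passed that call in few of them. H3K4me3 covered 7.57% untreated, 7.45% at 1 h and 8.25% at 4 h, with 0 domains past 10 percentage points at 1 h and 4 rises at 4 h (background for rises 2.65 and 5.90%, for falls 2.57 and 2.30%). As ratios to untreated, these are 0.983 and 1.09. H3K27me3 covered 0.17, 0.18 and 0.24%, or 1.07 and 1.40 times the untreated share, with 1 rise and 0 falls at each time (background for rises 0.0892 and 0.141%, for falls 0.156 and 0.0966%). Any untreated H3K27me3 was found in 6 domains, which were singled out after the values were seen. The most covered was chr2:119699190-119747893 (48704 bp) with 64.7% untreated, 63.8% at 1 h and 72.4% at 4 h.

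Flavopiridol was followed by a loss of H3K4me1 over the body of the domains, by a larger factor than the length of the whole list. Alone, it took the pooled share from 63.2 to 38.9%, or to 0.615 of the untreated value, while the whole H3K4me1 list went to 0.748 of its length. In 506 of 584 domains H3K4me1 fell by at least 10 percentage points and in 2 it rose (86.6 and 0.342%, background 45.6 and 8.29%). Of peaks of 10 to 30 kb, 66.1% fell. Untreated H3K4me1 was missing from 2266 of the 13457 background peaks, which could not fall, and from 0 long domains. Of the untreated H3K4me1 bases in long domains, 59.0% were still covered. That kept share was 62.1% in peaks of 10 to 30 kb, 67.4% in those under 10 kb and 64.0% outside H3K79me2, a smaller gap. Under LPS for 4 h the pooled share was 61.5% without and 30.1% with the inhibitor, 0.489 against 0.585 for the whole list. In that setting 537 fell and 0 rose (92.0%, background 53.5 and 7.77%). The flavopiridol lists stood apart in their deposited q: 12.8% of H3K4me1 peaks reached a −log10 q of 5 with flavopiridol alone against 54.4% untreated, and 4.02% against 53.0% under LPS for 4 h. Read numbers of these libraries are unknown, so depth and the mark itself cannot be told apart as sources of the list-wide loss.

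Cells given flavopiridol and then LPS for 4 h had less of both marks in the domains than cells given flavopiridol alone. H3K4me1 went from 38.9 to 30.1%, with 0 domains up and 218 down (37.3%, background 5.97% up and 29.7% down). H3K36me2 went from 75.3 to 57.8%, with 1 up and 417 down (0.171 and 71.4%, background 6.57 and 47.4%). The whole lists had 0.816 and 0.755 times the length of those with flavopiridol alone. Among peaks of 10 to 30 kb, 37.5% fell for H3K4me1 and 62.2% for H3K36me2. Their pooled shares went to 0.786 and 0.755 of the earlier value, against 0.773 and 0.768 in the long domains, so the 2 classes stood close together. With flavopiridol alone H3K4me1 was missing from 3210 background peaks and H3K36me2 from 1560, which could not fall. In the long domains they were missing from 1 and 0.

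The H3K4me1 loss with flavopiridol differed with the distance from the start. In the first 2 kb of the 488 oriented domains H3K4me1 covered 48.0% untreated and 62.1% with flavopiridol, a higher share. At 2 to 5 kb it was 88.0 and 73.2%, at 5 to 10 kb 80.5 and 51.3%, at 10 to 20 kb 69.8 and 40.6%, and at 20 to 30 kb 59.8 and 33.1%. Under LPS for 4 h the first 2 kb held 41.1% without and 52.2% with the inhibitor, and at 10 to 20 kb the shares were 68.0 and 31.4%.

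H3K4me1 that lay in H3K27ac peaks was mostly kept. Of the untreated H3K4me1 bases in long domains, 93.5% of those inside untreated H3K27ac peaks were still covered with flavopiridol, and 41.6% of those outside. Outside H3K79me2 the corresponding shares were 88.7 and 49.8%. The same order was seen without the inhibitor, so it is not particular to flavopiridol. Of the untreated H3K4me1 bases in long domains, 97.1% inside and 79.7% outside untreated H3K27ac were still covered at LPS 1 h. At LPS 4 h these shares were 96.9 and 87.2%. With flavopiridol then LPS for 4 h, against LPS for 4 h alone, the kept shares in the domains were 76.4% inside and 25.6% outside the H3K27ac peaks of LPS 4 h. H3K27ac itself was not mapped with flavopiridol. The 3 domains with the largest rises had H3K27ac over 81.2, 82.4 and 95.7% of their bases. The first, chr5:139854687-139888899 (34213 bp), went from 72.3 to 83.5% in H3K4me1, and the last, chr11:8490778-8529793 (39016 bp), from 91.6 to 100%. In chr4:136026451-136061218 (34768 bp), with H3K27ac over 8.52%, H3K4me1 went from 88.3 to 26.8%.

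**Figure D5:**
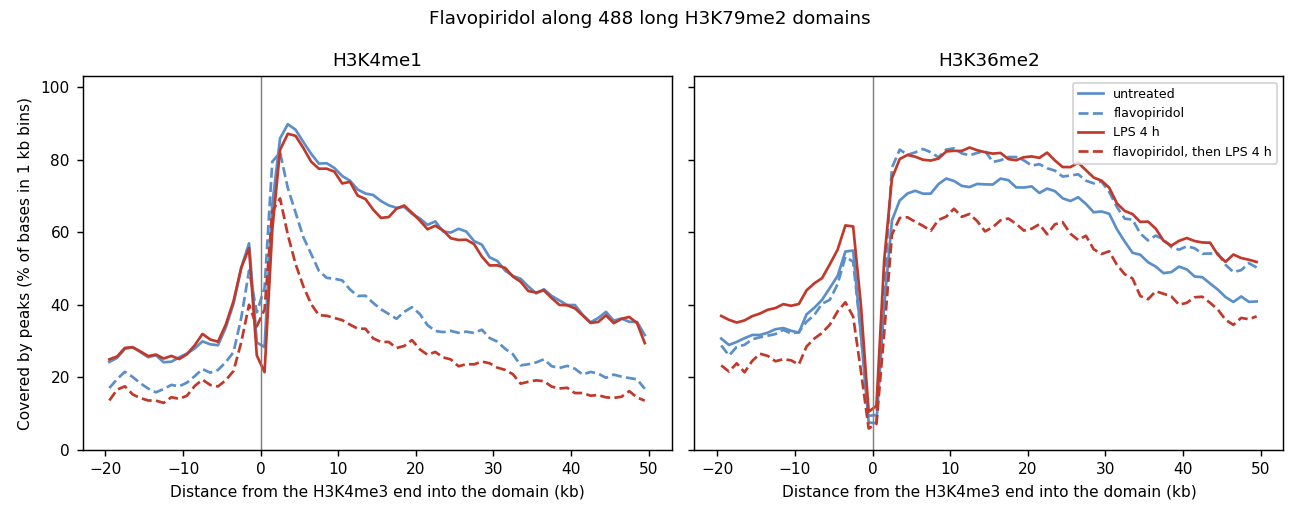
Share of bases covered by H3K4me1 (left) and H3K36me2 (right) in 1 kb bins by distance (kb) from the H3K4me3 end of the 488 oriented long domains, without (solid) and with (dashed) flavopiridol, in cells without LPS (blue) and after LPS for 4 h (red); each line is 1 library. H3K4me1 with flavopiridol is lower past 2 kb (40.6 against 69.8% at 10 to 20 kb) and higher in the first 2 kb, while H3K36me2 is higher without LPS and lower with it.

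H3K36me2 in the domains went in opposite directions with flavopiridol in the 2 settings, which differ in LPS and in time since the inhibitor. Alone, the inhibitor was followed by a share of 75.3% against 67.8% untreated, with 200 domains up and 22 down by at least 10 percentage points (34.2 and 3.77%, background 37.1 and 8.84%). Under LPS for 4 h the share was 57.8% with and 76.8% without it, with 13 up and 423 down (2.23 and 72.4%, background 8.29 and 42.8%). The whole H3K36me2 list had 1.08 times its length with flavopiridol alone and 0.659 times under LPS. Among peaks of 10 to 30 kb 44.1% rose with flavopiridol alone and 56.9% fell under LPS. Under LPS the pooled share with the inhibitor was 0.753 of that without it in the long domains. The ratio was 0.772 in peaks of 10 to 30 kb and 0.776 in those under 10 kb, so the classes stood close together. H3K36me2 at LPS 4 h was missing from 2320 of the 13457 background peaks, which could not fall, and from 3 long domains. The rise without LPS turned into a fall of 4.77 percentage points when peaks under a −log10 q of 5 were left out; the peaks kept are 9.02% of the untreated list and 0.20% of the flavopiridol list. Under LPS for 4 h such peaks are 32.5% of the H3K36me2 list without and 0.039% of that with flavopiridol. The part of this gap in either change was not tested.

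The 3 largest rises of H3K36me2 with flavopiridol alone were in domains where it had covered 7.57, 27.8 and 1.8% and H3K27ac 96.9, 78.8 and 69.7%. In chr7:87170494-87232397, the first of them, H3K36me2 covered 7.57% untreated and 72.0% with flavopiridol, and 46.2% at LPS 4 h and 38.4% with both. In chr17:31194310-31235113 (40804 bp), the last, the values were 1.8, 54.6, 66.0 and 24.3%. In the other direction, chr2:101995462-102026100 (30639 bp) was nearly free of both marks in both flavopiridol libraries: H3K36me2 covered 73.6% untreated, 2.70% with flavopiridol, 92.5% at LPS 4 h and 2.64% with both, and H3K4me1 79.3, 11.6, 74.5 and 11.7%. H3K79me2 covered 100% of that domain at LPS 1 h and 4 h, and it was not mapped with flavopiridol. Whether the cultures given flavopiridol differed from the others at this place in more than the inhibitor was not tested, so the values are not read as a loss of marks.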

How the data were processed

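Per the submitters' processing notes, the build was mm9, the aligner Bowtie 1.0.1 and the peak caller MACS2. The caller's version, settings and control, any pooling, the read numbers and the segmentation tool were each not given in the sources used here. Histone peaks were deposited as broad intervals, PU.1 as narrow ones with summits. Each peak's fold enrichment (a ratio), −log10 p and −log10 q, and score are the authors' deposited values. Of 29 samples, 26 had a list used here, and 3 are inputs. The authors also deposited segmentations into 27 states in steps of 200 bp.

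From these, peaks of a list were merged and intersected with the 584 domains by base (Python 3.11.15, numpy 2.4.6, pandas 2.3.3, scipy 1.17.1, matplotlib 3.10.9). Overlap means at least 1 bp. The interval arithmetic was tested on simulated data. A domain was called changed when its covered share moved by at least 10 percentage points, and the background is the share of all 13457 untreated H3K79me2 peaks so changed. Coordinates are 1-based. The deposited q of overlapping H3K79me2 peaks had a Spearman rho of 0.43 between untreated and LPS 1 h and the widths 0.77 over 11708 peaks, and over 520 such pairs on the long domains 0.68 and 0.88. At LPS 4 h the long domains had 0.65 and 0.82. Intervals were used in place of q.

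The members, width classes and lists were chosen with earlier results of these data known. Regions named are the 10 widest domains, the 5 with most H3K4me3, the 3 widest without it, the 5 with most PU.1, the 5 with least H3K36me3, the 3 largest rises and 3 largest falls per mark and comparison for H3K27ac, H3K4me1, H3K36me2 and H3K79me2, and the 3 on each side of the width threshold. The domains most covered in H3K27ac and in H3K27me3, and the least covered new wide peak, were singled out after their values were seen. Gene lists planned for an mm9 annotation were not run. Alternatives were other widths, merged domains, a −log10 q of at least 5, peaks of at least 1 kb, other distances from an end, medians over domains, other change thresholds and PU.1 peaks of at least 10-fold enrichment. The cell line's identity was not checked against marker genes here.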

Additional observations from a re-analysis of the deposited data

Results flagged for a closer look

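In 4 cases the pooled covered share of the long domains moved one way in one condition and the opposite way in the other, and none of these differences was tested, since each rests on single libraries. H3K36me2 with flavopiridol changed by 7.48 percentage points without LPS and by -18.99 under LPS for 4 h, a difference of -26.5. Those 2 settings also differ in time since the inhibitor was given. H3K27ac changed by -2.43 at LPS 1 h and 4.80 at 4 h, 7.23 apart. H3K36me3 changed by 0.58 and -0.91, which differ by -1.49, and H3K4me3 by -0.13 and 0.68, which differ by 0.804. The 1 h and 4 h changes share the untreated library.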

How the results depend on the processing

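With 1 library per group no replicate can be left out, and the spread between cultures and the read depth are unknown; both limit every value. No paired analysis was possible because each mark and condition has 1 library. Merging untreated H3K79me2 peaks within 1 kb changed none of the 26 main values at all, so it tested nothing. Using only peaks of at least 1 kb kept the 24 values it touched within their intervals and with the same sign (it was not run for PU.1). A width of at least 20 kb gave 1235 domains, 93.4% of them with H3K4me3, and one of 50 kb gave 168. At 50 kb the H3K27me3 changes after LPS turned from 0.012 to -0.0035 percentage points at 1 h and from 0.068 to -0.013 at 4 h.

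A −log10 q of at least 5 moved most values, and since deposited q agreed less between lists than widths (rho of 0.68 against 0.88 on the long domains at LPS 1 h), it is not read as a check on strong peaks. H3K4me3 was then in 93.0% of domains, H3K4me1 covered 44.8%, H3K36me3 32.2% and H3K36me2 4.80%, PU.1 stood at 13.6 per 100 kb, and H3K79me2 covered 92.2% at LPS 1 h and 91.9% at 4 h. The H3K36me2 change was 11.5 percentage points at 1 h and 19.0 at 4 h, that of H3K36me3 -6.29 at 4 h, and that of H3K27me3 -0.017 at both times. With flavopiridol H3K4me1 changed by -41.3 without LPS and -39.9 under LPS, and H3K36me2 by -4.77, a reversal, and -23.8. The cause was not tested.

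Within 10 kb of an end, 80.1% of domains had H3K4me3 at 1 end alone. The median over domains was 16.6% for H3K27ac and 73.8% for H3K36me2. PU.1 peaks of at least 10-fold enrichment stood at 4.62 per 100 kb. A change threshold of 5 or 20 percentage points moved counts of domains by over 1.5 times in most comparisons: at LPS 4 h H3K27ac rose and fell in 226 and 58 domains at 5, and 37 and 8 at 20. H3K36me2 rose and fell in 334 and 32, and 92 and 5. H3K4me1 rose and fell in 7 and 351 at LPS 1 h at 5, and 0 and 28 at 20. With flavopiridol alone H3K4me1 fell in 552 and 365 domains. For H3K36me3 at LPS 4 h the balance of rises and falls turned from -23 domains to 4 at 20 percentage points.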

Other observations

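The authors' segmentation splits the genome into 27 numbered states in steps of 200 bp, and a few of them made up most of the long domains. State 11, in whose steps genome-wide H3K79me2 peaks covered 99.2% and H3K36me2 79.2%, held 18.8% of the untreated domains. State 12, with H3K36me3 over 99.9%, held 15.1%, state 4, with H3K36me2 over 99.8%, held 15.0%, and state 7, with H3K4me1 over 99.7%, held 14.1%. State 6, with both H3K4me1 and H3K36me2 over 99.8%, held 9.0%, and state 8, with H3K27ac over 99.4%, held 6.1%. State 4 took 0.4% of the genome, and its share of the domains was 26.3% at LPS 1 h and 26.3% at 4 h.

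Of the 137550 steps in the domains, 40.8% had another state at LPS 1 h and 45.7% at 4 h, which is close to shorter H3K79me2 peaks, at 39.1 and 43.9% for 10 to 30 kb and 41.6 and 46.1% under 10 kb. Over the genome 11.0 and 12.2% changed, but 68.8% of it is in state 27 and 10.9% in state 19, which hold 0% of the untreated domains. The most frequent move was from state 11 to 4, with 10063 steps at 1 h and 11669 at 4 h, or 38.8 and 45.0% of the state 11 steps. Next was the move from state 7 to 6, with 5844 and 6831 steps. In both moves the second state has the higher H3K36me2 share (99.8 against 79.2%, and 99.8 against 78.0%). The labels list the segmentation with the same libraries as the peak lists, so it is not counted as separate evidence.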
